A study of Mus musculus with 8 samples.

Results

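Cdkn2a is the mouse gene of the cell-cycle inhibitor p16 (p16Ink4a), and its level was read on 8 arrays of cultured bone marrow stromal cells from 2 mouse strains. The gene was found through the names of the array's probes: a probe counted as a Cdkn2a probe if its identifier began with the gene's symbol or embedded its gene ID, 12578. That gave 1 probe among 46628, and Cdkn2a is 1 of 8103 genes for which a probe could be named. The probe's identifier carries the name p16Ink4a. Its sequence was not used here, so whether it also reads Arf, the other transcript of the gene, was not tested.

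The cells were mesenchymal stem cells (MSC), the adherent marrow cells that can form bone, fat and cartilage, grown to passage 4. There were 4 cultures from NOD mice, a strain that develops autoimmune diabetes, taken while blood glucose was normal, and 4 from BALB/c mice of the same age, which served as the reference. The series text states that marrow of at least 5 mice was combined for a culture, whereas the sample titles read as single mice. The same text describes a culture step with the cytokine IL-1beta, but no array carries that label and all 8 were taken as untreated. Total RNA of each culture was read on 1 single-colour Illumina bead array. Values of a strain are listed in the order of its cultures, from 1 to 4.

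The Cdkn2a locus makes 2 unrelated proteins from separate first exons that are joined to the same second exon in different reading frames. The p16 protein binds the kinases CDK4 and CDK6 and keeps them from their D cyclin partners, so that the retinoblastoma protein stays active and holds back E2F transcription factors and DNA replication. The Arf protein binds MDM2, which otherwise marks p53 for destruction. Polycomb proteins keep the locus silent in young cells, and p16 RNA builds up with passages in culture and with age, which is why it is widely used as a marker of senescence. RefSeq also lists the gene as Pctr1, after a plasmacytoma resistance locus mapped in crosses with BALB/c.

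In RefSeq annotation of GRCm38.p6 the gene lies on the minus strand of chromosome 4 from 89274473 to 89294619, a span of 20.1 kb with 2 annotated transcripts. The starts of these transcripts are 12.4 kb apart. Both start windows are shown because a reading of p16 RNA concerns the downstream start, and the upstream start belongs to Arf. Each line gives 250 bases before the start in lower case and the first 50 transcribed bases in capitals, read from RefSeq's promoter table at chr4:89294570-89294869 for Arf and at chr4:89282143-89282442 for p16, both on the minus strand.

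Arf start: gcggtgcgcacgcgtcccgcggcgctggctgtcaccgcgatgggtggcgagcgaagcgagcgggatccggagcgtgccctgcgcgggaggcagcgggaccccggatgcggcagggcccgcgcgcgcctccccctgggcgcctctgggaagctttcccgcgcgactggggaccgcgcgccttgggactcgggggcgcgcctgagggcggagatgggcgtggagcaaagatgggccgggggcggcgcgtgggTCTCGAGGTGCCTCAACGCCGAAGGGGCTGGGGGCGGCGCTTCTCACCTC

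p16 start: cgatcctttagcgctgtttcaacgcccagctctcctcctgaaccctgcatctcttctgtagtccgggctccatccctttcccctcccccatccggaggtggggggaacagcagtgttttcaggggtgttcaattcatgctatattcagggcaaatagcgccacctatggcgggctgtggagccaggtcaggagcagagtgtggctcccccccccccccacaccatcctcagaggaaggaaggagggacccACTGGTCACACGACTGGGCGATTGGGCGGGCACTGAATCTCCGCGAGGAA

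The window of the Arf start is rich in CpG dinucleotides, with 45 of them and a GC content of 77%, above that of 97.6% of 32841 RefSeq promoter windows. The p16 window has 12 CpG dinucleotides and a GC content of 60.3%, above 71.3% of the windows. Read on both strands, the GC box core GGGCGG occurs 3 times in the Arf window and 1 time in the p16 window, and 35.7% of all windows hold it. The core of Ets sites, GGAA, occurs 2 times and 5 times, and 96.0% of windows hold it. No match to the E box CANNTG (72.3% of windows), to the E2F forms TTTCGCGC (0.323%) and TTTGGCGC (0.515%), or to the TATA box TATAAA (13.6%) lies in either window. Only these E2F forms were searched, and the Arf window holds the similar tttcccgc, which was not counted. Some searched motifs can share bases with each other, and a match of letters is a description only.

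The p16 probe was above the background in BALB/c MSC and near it in NOD MSC. The raw bead signal was 161, 657, 696 and 256 in BALB/c. The NOD signals were 69.7, 130, 80.7 and 81.1. Every BALB/c signal was thus above every NOD signal, and BALB/c cultures 2 and 3 were the brightest. The array's negative controls, beads that match no mouse sequence, set the scale of these values. Relative to the median of the controls on the same array, the signal was 3.27, 11.0, 14.3 and 5.32 times as bright in BALB/c. The same ratio was 1.16, 2.22, 1.40 and 1.56 in NOD. A probe was taken as detected where its deposited detection p-value, the rank of its signal among the negative controls, was under 0.05. By that measure the 4 BALB/c arrays all detected p16, and of the 4 NOD arrays only 1 did, that of culture 2, where the detection p-value was 0.0200. On the other NOD arrays these p-values were 0.289, 0.197 and 0.0948.

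**Figure D1:**
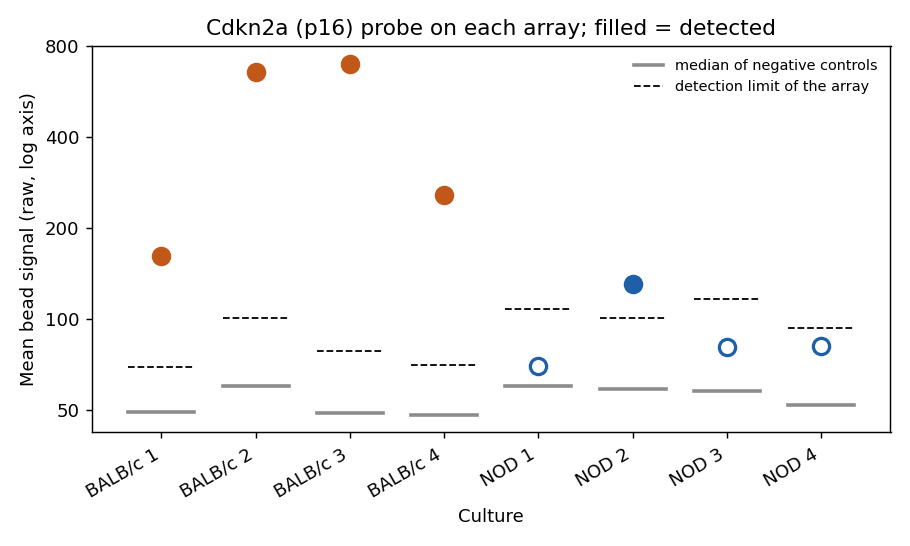
Raw mean bead signal of the Cdkn2a probe (log axis) on each array, with BALB/c in orange and NOD in blue, filled where the probe was detected. Grey bars mark the median of the negative controls and dashed lines the lowest detected signal of that array. All 4 BALB/c points lie above their array's limit, and of the NOD points only that of culture 2 (130) does.

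The contrast between strains was also one of rank within each array. On the BALB/c arrays the p16 probe was brighter than 37.6%, 64.8%, 68.1% and 52.6% of the tested probes in order. On the NOD arrays it was brighter than 0.569%, 16.3%, 2.25% and 1.95%. A tested probe is any of the 17757 detected on at least 4 arrays, a condition that p16 met through its BALB/c arrays alone. On the BALB/c arrays the p16 probe was therefore of middling brightness, and on the NOD arrays it stood near the lower end of the tested probes. These are ranks of probe signal, not of RNA amount between genes.

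After background correction and quantile normalization, the log2 level was 7.33, 9.20, 9.45 and 8.33 in BALB/c. The NOD levels were 5.10, 6.13, 5.21 and 5.40. The groups did not overlap, and the gap between the lowest BALB/c level and the highest NOD level was 1.20. Among all tested probes, 17.2% had groups that did not overlap, 9.25% with NOD lower. The mean was 8.58 ± 0.96 (SD, n = 4) in BALB/c and 5.46 ± 0.46 (SD, n = 4) in NOD. The difference of -3.12 ± 0.47 (SE) on the log2 scale means that p16 was 8.67-fold lower in NOD MSC, with a 95% confidence interval of 4.17-fold to 18.0-fold. By limma's moderated test with Benjamini-Hochberg adjustment over all tested probes, the adjusted p was 0.00462. The background for this call is that 8.52% of all tested probes were called at an adjusted p under 0.05. Those called lower in NOD were 4.35% of all tested probes. An exact two-sided permutation test of the 8 levels gave p = 0.0286, the smallest that 4 against 4 allows. Because most NOD values lie at the background, the fold is one of fitted values. In bulk cultures, fewer cells that make p16 RNA and less of it per cell cannot be told apart. Whether the strains differ in the sequence under this or any other probe was not tested.

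The p16 difference lay near the lower end of all differences on the array. Of the tested probes, 62 (0.349%) were as much or more lower in NOD. Another description is the pattern of detection: 125 probes shared p16's pattern of 4 BALB/c arrays and 1 NOD array, and 38 of these were called. Over all tested probes 8.52% were called. The pattern itself picks probes that are brighter in BALB/c, which raises the share called, so these counts are a description only. The authors' normalized table, on a linear scale, gave p16 a value of 252, 785, 797 and 446 in BALB/c. In NOD that table gave 68.3, 130, 77.5 and 89.5. The ratio of the means in that table was 6.24, and the order of the cultures within BALB/c was the same as in the raw signal.

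**Figure D2:**
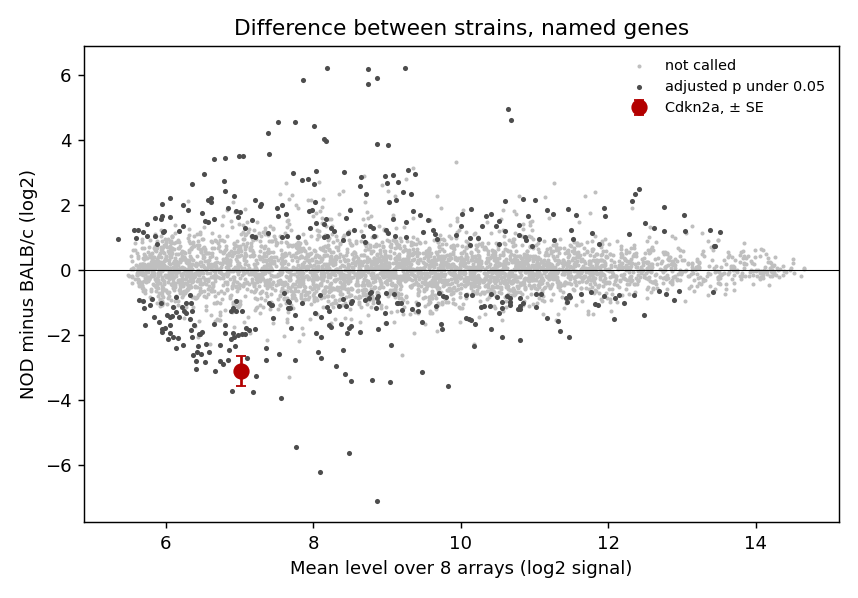
Difference between strains (NOD minus BALB/c, log2) against the mean log2 level over the 8 arrays, 1 point for each of 4221 tested named genes, dark where the adjusted p was under 0.05. Cdkn2a, in red with its SE, lies at -3.12, below most genes of a like level.

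The size of this difference depended on how the background was handled. With the detection p-values read exactly as deposited, a few very bright probes enter the background estimate, dim signals are compressed, and the fitted p16 difference was 1.92-fold with a limma adjusted p of 0.0922. The exact permutation p stayed 0.0286, as it must while the groups do not overlap, and the direction was the same. Without background correction the fold was 4.72, with a larger offset of 50 the value was 5.35, and leaving out BALB/c cultures 2 and 3 gave 5.20 (adjusted p 0.00413, limma).

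The fitted level of p16 varied more among the BALB/c cultures than among the NOD cultures. Only 1 of the 4 NOD arrays detected the probe, so values near the background limit the NOD spread. Its SD in BALB/c (0.96) was larger than that of 83.2% of the tested probes, whose median SD was 0.48 in BALB/c and 0.29 in NOD. In order of level the cultures ran BALB/c 3, 2, 4 and 1, then NOD 2, 4, 3 and 1. BALB/c cultures 3 and 2 differed by 0.25 on the log2 scale, NOD cultures 4 and 3 by 0.18 and NOD cultures 3 and 1 by 0.11, all under the SD of their strain. With 1 array a culture there is no error within a culture, so the order inside a strain is given as values only. BALB/c cultures 2 and 3 also stood apart in the whole profile. Across the tested probes they correlated better with a NOD array (0.900 and 0.905) than with any BALB/c array (at most 0.871 and 0.900), whereas correlations ran from 0.927 to 0.985 within NOD. These are also the cultures with the highest p16. Without both of them, p16 was still called, and with only BALB/c cultures 1 and 3 kept it was 7.77-fold lower in NOD (limma adjusted p 0.0312).

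The label of the cells was checked against marker genes. As background for this and the following gene lists, 9.12% of 4221 tested named genes were called, 4.15% higher and 4.98% lower, with a median difference of -0.021. Of 20 marrow stromal markers 11 had a probe and 9 were tested, with 7 positive and 2 negative differences. Vcam1, an adhesion receptor, Prrx1, a transcription factor of limb and marrow mesenchyme, and Col1a2, a chain of type I collagen, were called higher in NOD. The 2 negative values were those of decorin (Dcn) and endoglin (Eng), which are named after their values were seen. Dcn differed by -0.78 ± 0.22 (SE, limma adjusted p 0.0613) with groups that did not overlap. A second Dcn probe gave 0.21 ± 0.82 (SE, limma adjusted p 0.898), opposite in sign. Eng differed by -0.65 ± 0.65 (SE). In 7 of 20 alternatives, among them no background correction, an offset of 50 and the loss of BALB/c culture 2 or 3, 1 stromal marker was called lower. Col1a2 lost its call in 9 of 20 alternatives, among them those without BALB/c culture 1 or 4 and without any 1 NOD culture.

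Of 26 markers of macrophages and other leukocytes 13 had a probe, and none of the 3 tested passed the test. The number of these 13 that were detected was 4, 2, 2 and 7 in BALB/c and 1, 1, 2 and 2 in NOD. Their summed background-corrected level, undetected probes included, was 612, 3044, 463 and 2704 in BALB/c and from 440 to 608 in NOD. Single bright genes weigh most in such a sum, as Lyz2 did in BALB/c culture 2, at a log2 level of 11.42. BALB/c culture 3, with the highest p16, had the lowest of the BALB/c sums, and culture 2, with the second highest p16, had the highest. Cd68, a lysosomal protein of macrophages, was at 7.93, 6.89, 6.02 and 9.09 in BALB/c and at 5.66, 5.39, 5.50 and 5.06 in NOD, and the 4 BALB/c arrays detected it while the NOD arrays did not. Its groups thus did not overlap, as with p16. The fitted difference was -2.08 ± 0.58 (SE), not called (limma adjusted p 0.0615). As no NOD array detected Cd68, its fold is a bound, at least 3.50-fold lower in NOD. The macrophage genes Csf1r, Fcgr3 and C1qa were each detected on 1 BALB/c array, in each case that of culture 4. C1qb was detected on 2, those of cultures 1 and 4, and none of these genes on a NOD array. The other 6 markers with a probe, Ptprc, Itgam, Mpo, Cd3e, Cd52 and Lyz1, were detected on no array. Of these markers, those beside Lyz2 and Cd53 are named after their values were seen. Lyz2, the lysozyme of myeloid cells, differed by -2.15 ± 1.28 (SE) and Cd53, a leukocyte tetraspanin, by 0.88 ± 0.78 (SE), with limma adjusted p-values of 0.331 and 0.517. Without BALB/c culture 2, without 3 or without both, 1 of the 3 tested markers was called lower in NOD, and 2 were with array weights.

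Of 8 endothelial markers 3 had a probe and 1 was tested: Egfl7, a secreted protein of blood vessels, was at least 1.59-fold higher in NOD and detected on no BALB/c array (limma adjusted p 0.0316). Neither of 2 erythroid markers with a probe was tested. Of 14 osteoblast and adipocyte markers 6 were tested, and 4 were higher in NOD, the osteocalcin genes Bglap, Bglap2 and Bglap3 and the phosphatase gene Alpl. The other 2 had negative differences, were not called and are named after their values were seen. Spp1 differed by -0.18 ± 0.16 (SE, limma adjusted p 0.509) with groups that did not overlap. Lpl differed by -0.58 ± 0.64 (SE, limma adjusted p 0.609). The osteocalcin genes kept their calls in all 19 alternatives that gave a value. Alpl lost its call in 11 of 20, among them those without BALB/c culture 1 or 2 or any 1 NOD culture, and Egfl7 in 9 of 19, among them those without BALB/c culture 1 or 4 or NOD culture 3 or 4. Whether the makeup of the cultures has a part in the p16 difference was not tested beyond these values.

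Other inhibitors of cyclin-dependent kinases could be followed for Cdkn1a only. Cdkn1a encodes p21, the inhibitor that p53 switches on and the other common marker of cell-cycle arrest. Its level was 12.53, 11.85, 10.47 and 12.25 in BALB/c and 11.41, 11.87, 11.59 and 11.38 in NOD. The groups overlapped, and the difference of -0.21 ± 0.42 (SE) did not pass limma's test (adjusted p 0.783). A second Cdkn1a probe gave 0.03 (adjusted p 0.983). Within BALB/c, the order of the cultures by p21 was the exact reverse of their order by p16: culture 1 was highest in p21 and lowest in p16, and culture 3 the opposite. This is a description of 4 cultures, and no test was made of it. Of the 8 inhibitors listed, 4 had a probe, and Cdkn1b (p27) and Cdkn3, a phosphatase that acts on CDK2, were detected on too few arrays to be tested. Cdkn2b, Cdkn2c, Cdkn2d and Cdkn1c were not analysed here.

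The kinases that p16 binds, CDK4 and CDK6, were not analysed here. Of 9 genes of these kinases, the D cyclins and the assembly and activation of their complexes, 4 had a probe and were tested, and 1 rose in NOD. Mnat1, the assembly factor of the CDK-activating kinase, was at 9.26, 9.70, 9.94 and 9.60 in BALB/c and at 10.69, 10.71, 10.57 and 10.49 in NOD. The groups did not overlap, and Mnat1 was 1.99-fold higher in NOD (limma adjusted p 0.0172). Its partner Ccnh differed by 0.12 ± 0.23 (SE), cyclin D1 (Ccnd1) by 0.37 ± 0.18 (SE) and cyclin D3 (Ccnd3) by 0.83 ± 0.73 (SE), and none of these passed. Other Ccnd1 probes gave 0.48 ± 0.26 and -0.21 ± 0.29 (SE), and neither was called. The median of the 4 genes was 0.60. Mnat1 lost its call without BALB/c culture 4, without NOD culture 1, 2 or 4, without BALB/c cultures 2 and 4 and with the replicate block.

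Of 17 genes of the retinoblastoma family, the E2F factors and their complexes, 8 had a probe and 5 were tested, and none was called. Tfdp1, the partner with which E2F proteins bind DNA, differed by 0.88 ± 0.36 (SE, limma adjusted p 0.173) and its relative Tfdp2 by -0.10 ± 0.40 (SE). The activating factors E2f2 and E2f3 differed by -0.22 ± 0.39 and 0.25 ± 0.22 (SE), and the repressor E2f6 by 0.30 ± 0.25 (SE). Other E2f6 probes gave 0.90 ± 0.62 and 0.90 ± 0.60 (SE), and neither was called. E2f8, Lin9 and Lin52 were detected on no array. The median over the 5 was 0.25. Without BALB/c cultures 2 and 3, 2 of the 5 were called higher.

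Genes that E2F factors switch on for DNA synthesis and mitosis lay higher in NOD as a group of values, with few calls. Of 37 listed, 14 had a probe and 13 were tested, and 12 of the 13 differences were positive, beside 2045 of 4221 over all tested named genes. Their median difference was 1.71. Only 2 rose by the test: Tk1, the thymidine kinase of S phase, 5.05-fold (limma adjusted p 0.0392), and Rfc3, a subunit of the loader of the replication clamp, 3.05-fold (adjusted p 0.0379). Tk1 stood at 6.93, 8.30, 8.92 and 6.02 in BALB/c and at 9.69, 10.13, 9.91 and 9.80 in NOD. Rfc3 stood at 7.01, 7.65, 8.80 and 7.08 in BALB/c and at 9.53, 8.97, 9.13 and 9.33 in NOD. In both genes the strains did not overlap, and BALB/c culture 3 came closest to NOD.

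As a mean over the 13 E2F targets, each relative to its own average over all cultures, BALB/c gave -1.64, -0.45, 0.33 and -1.59. The NOD means were 0.78, 0.46, 1.28 and 0.83. Between strains the side with the lower p16 had the higher E2F targets. Within BALB/c it ran the other way, since cultures 3 and 2, with the highest p16, also had the highest E2F targets of that strain. Both are descriptions of 8 cultures. The count of 2 called genes depended on single cultures: it was 0 without BALB/c culture 1 or 4 or without NOD culture 1, 3 or 4, 1 without NOD culture 2, and 6 and 9 without BALB/c culture 2 and 3. Without BALB/c cultures 2 and 3 together it was 9, and without 2 and 4 it was 0. The count also depended on the processing. It was 0 with the replicate block, 0 of 14 with no filter on dim probes, 4 with median scaling or in the authors' table and 11 with array weights.

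**Figure D3:**
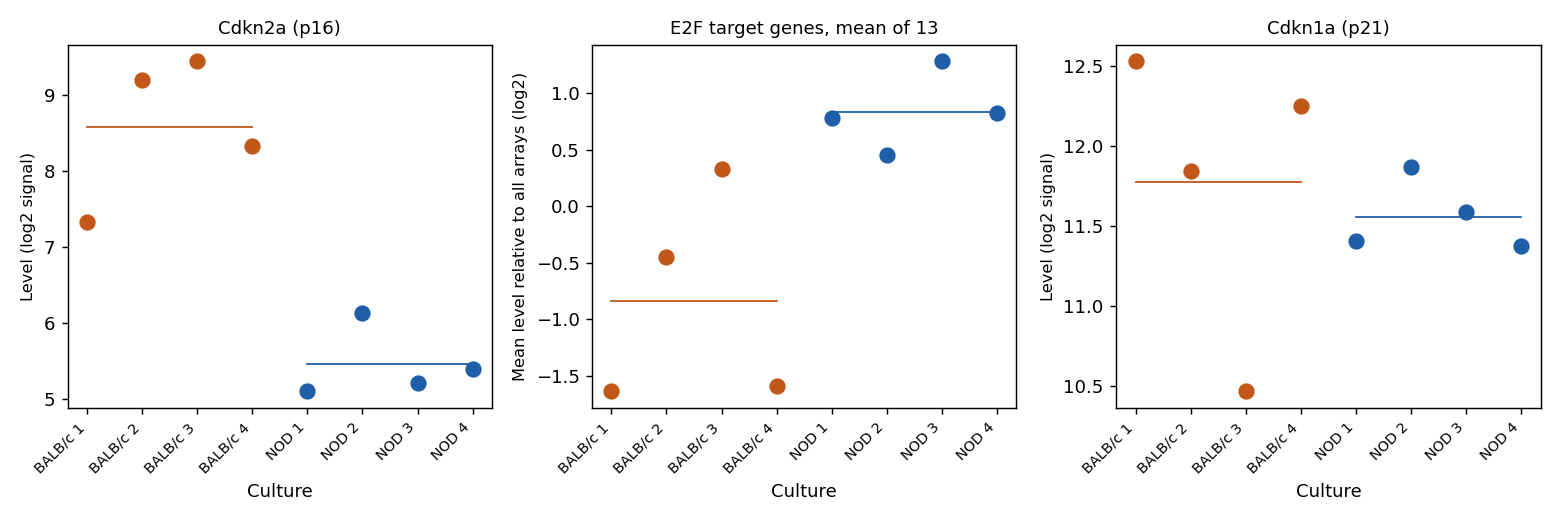
Log2 level of Cdkn2a, mean relative log2 level of 13 E2F target genes and log2 level of Cdkn1a in each culture, with BALB/c in orange, NOD in blue and lines at the strain means. Cdkn2a separates the strains, Cdkn1a does not, and the BALB/c cultures highest in Cdkn2a (2 and 3) are highest in E2F targets and lowest in Cdkn1a.

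The arm of the locus that runs through Arf was thinly covered. Of 10 genes around Arf, MDM2 and p53, 4 had a probe and 1 was tested. Ubtf, a ribosomal RNA gene transcription factor that Arf is known to restrain, differed by 0.42 ± 0.39 (SE, limma adjusted p 0.537). Mdm4, the relative of MDM2 that inhibits p53, was detected on too few arrays, and Myc and Trp73 on none. Of 25 p53 target genes, 9 had a probe and 8 were tested, none was called, and the median was -0.11. All 8 differences were negative, and with median scaling of the arrays their median was 0.06. Gdf15, a secreted stress factor, had the most negative value at -1.03 ± 0.63 (SE, limma adjusted p 0.344), and Xpc, a DNA damage sensor, the least negative at -0.03 ± 0.32 (SE). Gdf15 was at 9.38, 7.62, 6.35 and 9.23 in BALB/c, the same order as p21, and from 6.87 to 7.62 in NOD. Without BALB/c cultures 2 and 3, 2 of the 8 were called lower, and without culture 3 alone 1 was.

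Regulators of the locus were also read. Of 31 Polycomb and other repressors, 13 had a probe, 10 were tested and none was called, with a median of 0.12. Bmi1, the Polycomb protein best known for silencing this locus, had the largest positive value, 1.34 ± 0.67 (SE, limma adjusted p 0.250). It stood at 7.35, 10.41, 7.75 and 7.36 in BALB/c and at 9.87, 8.80, 10.06 and 9.49 in NOD. BALB/c culture 2 alone lay above all NOD cultures. That culture also had the second highest p16 level. Cbx7, another Polycomb protein that acts on the locus, differed by -0.88 ± 0.47 (SE, adjusted p 0.276). With BALB/c culture 2 left out, 1 repressor was called higher, with 2 and 4 left out also 1, and without cultures 2 and 3, 3 were higher and 2 lower. Of 20 activators, 6 of 7 with a probe were tested, and 1 rose. Foxo1, a forkhead factor that insulin signalling restrains, was at 7.68, 8.10, 8.03 and 7.97 in BALB/c and at 9.06, 8.88, 9.55 and 9.21 in NOD. The strains did not overlap, and Foxo1 was 2.35-fold higher in NOD (limma adjusted p 0.00818). The median over the 6 activators was 0.04, and without BALB/c culture 2 or 3 the calls numbered 2.

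Glb1 and Hmgb1, other genes used to mark senescent cells, were called in every alternative run. Of 16 such genes 5 had a probe and 4 were tested, with 1 lower and 1 higher in NOD and a median of 0.25. Glb1 encodes the lysosomal galactosidase whose activity is stained as a sign of senescence. It stood at 12.10, 12.26, 11.38 and 11.96 in BALB/c and at 10.45, 10.56, 10.33 and 10.36 in NOD. The groups did not overlap, and Glb1 was 2.83-fold lower in NOD (difference -1.50 ± 0.22 SE, limma adjusted p 0.00458). Hmgb1 encodes a chromatin protein that senescent cells lose from the nucleus. It stood at 9.53, 9.50, 9.74 and 9.71 in BALB/c and at 10.97, 10.88, 11.23 and 10.73 in NOD. Again the groups did not overlap, and Hmgb1 was 2.52-fold higher in NOD (difference 1.33 ± 0.18 SE, adjusted p 0.00284). Both genes kept their call in all 20 alternatives, and their spread among BALB/c cultures was small beside that of p16.

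The factors that senescent cells are known to secrete went both ways. Of 42 such genes 14 had a probe and 9 were tested, 2 rose and 1 fell in NOD, and the median was 0.12. The calls were all genes of insulin-like growth factor binding proteins. Igfbp3 was 7.18-fold and Igfbp4 3.82-fold higher (limma adjusted p 0.0175 and 0.0190), and Igfbp6 3.33-fold lower (adjusted p 0.0496). Igfbp3 ran from 5.80 to 8.78 in BALB/c and from 9.45 to 10.57 in NOD. Igfbp6 ran from 8.18 to 10.12 in BALB/c and from 7.01 to 8.44 in NOD, so that its groups overlapped. None of the 9 was called without NOD culture 1 or 4 or without BALB/c cultures 2 and 4, and Igfbp6 lost its call in 14 of 20 alternatives. With no filter on dim probes none of 14 was called. The replicate block left 1 call, and array weights gave 4 higher and 4 lower. Without BALB/c cultures 2 and 3, 3 were higher and 3 lower. Without BALB/c culture 1 the calls numbered 2, and without BALB/c culture 4 or NOD culture 2 or 3 there was 1.

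**Figure D4:**
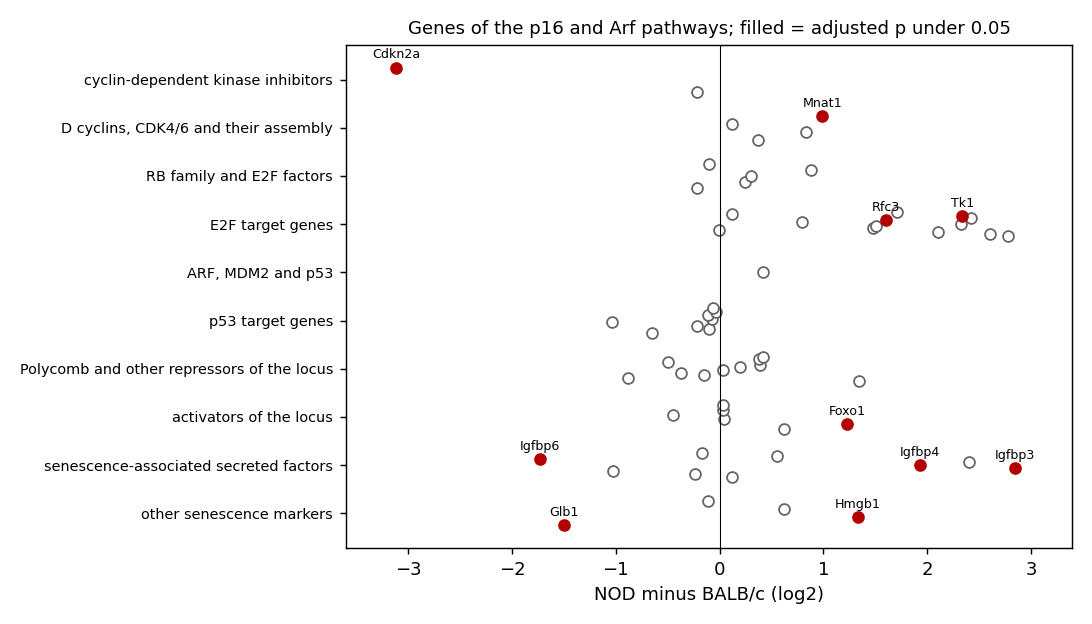
Difference between strains (NOD minus BALB/c, log2) of every tested gene in 10 groups around p16 and Arf, 1 point a gene, filled where the limma adjusted p was under 0.05. The called genes lower in NOD are Cdkn2a, Glb1 and Igfbp6, and most E2F targets lie above 0 without passing the test.

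To show which genes followed the same course, the profile of each of 4220 other tested named genes was set beside that of p16, each relative to its own mean, by the root mean square distance on the log2 scale. That distance was 1.72 for the median gene, and the p16 profile itself has a root mean square of 1.69. Of the 8 nearest, 7 are described here: Sri (sorcin, a calcium-binding protein) at a distance of 0.48, Arl5a (a small GTPase of the Golgi) at 0.61, Gtpbp10 (a GTPase of mitochondrial ribosome assembly) at 0.62 and Il7 at 0.64. Il7 is the cytokine with which marrow stroma sustains lymphocyte precursors. Dctn4 (a subunit of the dynein partner dynactin) followed at 0.65, Gbp2b (an interferon-induced GTPase) at 0.67 and H2-Q5 (an MHC class I gene) at 0.68. Among unnamed probes, 8 were nearer than the eighth named gene. The strains did not overlap in any of the 7, a property that closeness to p16 largely fixes.

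The 7 genes were all lower in NOD, which the choice by profile also fixes, so their sizes are given with no test. Sri was 10.9-fold lower, with 10.76 ± 0.61 in BALB/c and 7.31 ± 0.16 in NOD (SD, n = 4). Dctn4, the brightest, was 12.1-fold lower and hardly varied within BALB/c (11.62 ± 0.15). Gbp2b was 15.4-fold and H2-Q5 5.28-fold lower. Of the 7 genes, Arl5a, Gtpbp10 and Il7 were detected on no NOD array, and for these only a bound can be given: at least 10.4-fold, 2.68-fold and 3.80-fold lower, each against the detection limit of the NOD arrays. The nearest mirror images, high where p16 was low, were Ephb2 (a receptor of ephrins) at 0.53, Twistnb (a subunit of RNA polymerase I) at 0.59, Ralgps2 (an exchange factor for Ral GTPases) at 0.61 and Wnt10b (a Wnt ligand that favours bone formation) at 0.62. They were 6.58-fold, 6.55-fold, 4.40-fold and 6.99-fold higher in NOD. With the detection p-values left unchanged the folds of dim genes were smaller, 3.22 for Gbp2b, 1.72 for H2-Q5 and 1.47 for Ephb2, while that of Dctn4 was 11.4.

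**Figure D5:**
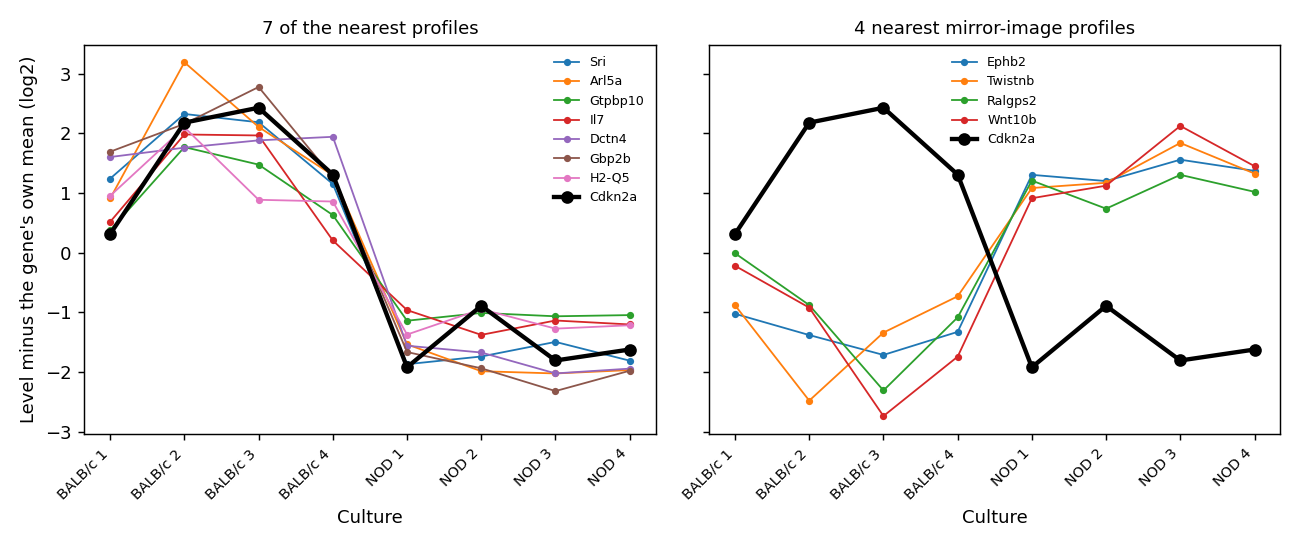
Log2 level relative to the gene's own mean over the 8 arrays for Cdkn2a (black) and, at left, 7 named genes with the nearest profiles and, at right, the 4 nearest mirror images. Lines join the values of 1 gene and imply no order of cultures. Cdkn2a and these 7 genes lie above 0 in every BALB/c culture and below 0 in every NOD culture.

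Genes near Cdkn2a on chromosome 4 gave no comparable reading. On the side of lower coordinates the nearest genes with a probe were the interferon alpha genes Ifna1, Ifna4, Ifna5 and Ifna11, 424 to 454 kb away, and all were detected on no array. On the other side Zfp352, 924 kb away, was detected on none and Hook1, a linker of cargo to microtubules, on too few to be tested. Gm12666, at 2896 kb, differed by 1.13 ± 0.43 (SE, limma adjusted p 0.143) and Plaa, a ubiquitin-binding protein at 5271 kb, by -0.25 ± 0.26 (SE, adjusted p 0.594). Interferon alpha genes are close copies of each other, so a probe for 1 of them may also read others.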

How the data were processed

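RNA was extracted with Trizol and read as biotinylated cRNA, per the labels' protocols. The deposited table held mean bead signal intensity, not normalized per the file headers, and a deposited detection p-value for each of 46628 probes, whose steps imply 1603 negative controls. A second deposited table held the authors' normalized intensity. The authors' normalization, the array model and the scanner software were looked for and are, all of them, not given in the sources used here. Median raw signal was 56.5 to 74.9 in BALB/c and 68.7 to 78.6 in NOD, and 36.2% to 39.4% of 46070 gene probes were detected on an array. The number of arrays limits precision.

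The computation used limma 3.58.1 under R 4.3.3, with normexp background by way of the detection p-values and the offset 16, quantile normalization, then lmFit and eBayes over 17757 probes detected on at least 4 of 8 arrays, with Benjamini-Hochberg adjustment and a threshold of 0.05. On each array, 4 to 5 probes with a signal of at least 10173 had a p-value smaller than 1 step of the controls yet not 0, and these were set to 0. The scripts were tested on simulated data. Where a probe was undetected in all cultures of a strain, its fold is a bound ("at least"), taken against the lowest detected signal of those arrays, or against the probe itself where that was higher.

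Probes other than that of Cdkn2a were named by reading the zero-padded number in their identifier as a gene ID. Of 9995 such numbers 81.1% were found in RefSeq's mouse table, against 11.3% of 16482 unpadded numbers. The brightest tested probe stood for a gene. Named genes were all members of the short pathway lists that had a probe, all called genes of the other lists or, where none was called, the extremes, the 8 nearest and 4 mirror profiles, and 4 neighbours on each side. A result for 1 of the 8 nearest is not reported here. The members and lists were chosen with earlier results of these data known. The strain labels set the groups. The series text numbers the samples the other way round, and the labels were used. P-values measure the spread between these cultures. Leaving out cultures kept the same tested probes. Whether arrays shared a chip or a batch was not tested.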

Additional observations from a re-analysis of the deposited data

Results flagged for a closer look

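Among the 96 groups of 4 arrays examined for 48 genes, 5 held a culture far from the other 3 of its strain, and chance gives about 1 in 20 groups. BALB/c culture 2 stood apart for Bmi1, at 10.41 against 7.35 to 7.75 in the other BALB/c cultures, for cyclin D3 (Ccnd3), at 9.51 against 6.02 to 6.58, and for H2-Q5, at 9.46 against 8.22 to 8.31. BALB/c culture 3 was low for Col1a2, at 8.08 against 9.27 to 9.38. NOD culture 1 was high for Arl5a, at 5.65 against 5.16 to 5.22, all of them not detected. Cdkn2a had no such culture in either strain. All values are log2 levels.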

How the results depend on the processing

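Cdkn2a was lower in NOD in all 19 alternatives that gave it a value and passed limma's test in 18, with differences from -3.54 to -0.94 on the log2 scale and adjusted p-values from 3.84e-05 to 0.0922. The exception was the fit that took detection p-values unchanged (-0.94). The filter for probes detected on all 8 arrays left Cdkn2a out. Leaving out 1 culture gave -3.54 to -2.83, and the replicate block gave -3.12 (limma adjusted p 0.0161), although same-numbered cultures did not deviate together (correlations of -0.33, -0.64, -0.047 and 0.081) and share only a number. The exact p was 0.0667, the smallest that 2 against 4 allows, without BALB/c cultures 2 and 3 or without 2 and 4, the latter chosen after seeing the data. Array weights, whose estimate did not fully converge, gave -2.70.

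The 1513 probes called became 776 under the filter for all 8 arrays, 10257 with array weights, 513 with the replicate block, 610 to 3693 when 1 culture was left out and 6409 without BALB/c cultures 2 and 3. Median scaling called 965 higher and 546 lower and moved the median of all probes to 0.16. The gene lists held 18 calls among 79 tested genes (15 higher and 3 lower, with Cdkn2a among the lower). Over all tested named genes 9.12% were called. The count of 18 became 10 of 116 with no filter and 10 of 62 under the filter for all 8 arrays. Of the 79, it was 55 with array weights, 7 with the replicate block, 8 to 30 when 1 culture was left out and 41 without BALB/c cultures 2 and 3. Of 29 other named genes called, 19 lost the call in at least 1 alternative and 0 turned while called.

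The genes that changed sign were all uncalled in the fit reported. Xpc was 0.035 with the p-values unchanged, 0.15 with median scaling, 0.021 in the authors' table, 0.26 with array weights, -0.26 to 0.26 when 1 culture was left out and 0.18 without BALB/c cultures 2 and 3. Tfdp2 was 0.10 with median scaling, 0.42 with array weights, -0.41 to 0.16 when 1 culture was left out and 0.65 without BALB/c cultures 2 and 3 (limma adjusted p 0.0359). E2f2 was 0.22 with array weights, -0.44 to 0.11 when 1 culture was left out and 0.38 without BALB/c cultures 2 and 3. Ubtf was -0.073 with weighted arrays and -0.12 without BALB/c cultures 2 and 3, and Cd53 was -0.079 with weighted arrays. Cdkn1a ranged from -0.66 to 0.038 when 1 culture was left out, and without BALB/c cultures 2 and 4 Cdkn1a was 0.058, Ccnh -0.0091 and Lyz2 0.026. The cause was not tested. Dim signal limits the NOD levels of Cdkn2a, which lie near the negative controls.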
